A study of Homo sapiens with 5 samples.

Results

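The comparison described here is chronic hypoxia in MDA-MB-231, a human cell line derived from triple-negative breast cancer and known for its mesenchymal traits. Cells kept at 1% O2 for 10 days were set against cells kept at 20% O2 for 10 days, with 1 RNA-seq library on each side. Every gene with at least 5 CPM (read counts scaled to a common total with TMM factors) in either library was taken, which gave 11473 of the 26475 rows of the table. Of these, 10550 passed in both libraries, 691 passed at 1% O2 only and 232 passed at 20% O2 only. The gene NAPRT lay just inside this limit, with deposited values of 5.08 at 1% O2 and 4.91 at 20% O2, and C3orf33 lay just outside it, with 4.697 at 1% O2 and 4.998 at 20% O2.

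The study compared a long with a short exposure to low oxygen. Its other 3 libraries came from cells kept for 1 day at 1% O2, cells kept for 1 day at 20% O2, and reoxygenated cells (10 days at 1% O2 and then 10 days at 20% O2). All 5 came from the same cell line, carried no gene change or drug that the labels name, and were made with an mRNA kit from RNA whose integrity had been checked, per the labels' protocols. The labels do not say whether the day 10 cultures were grown side by side.

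Oxygen is sensed through the prolyl hydroxylases of the EGLN family, which mark the alpha subunits of the hypoxia-inducible factors (HIF) for destruction by the VHL ubiquitin ligase. When oxygen is low, HIF-1α and HIF-2α escape this mark, pair with ARNT and bind short DNA elements with the core ACGTG or GCGTG. Their known targets serve glucose uptake and glycolysis, pH control, blood vessel growth, matrix remodelling and the trimming of mitochondria. Long hypoxia is also known to slow growth and to restrain the making of ribosomes and proteins.

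Library totals were 9781980 counts at 1% O2 and 12544953 at 20% O2 on day 10, and ran from 7719797 to 11189152 in the other 3. NDRG1, TNFSF10, SLC2A3 and LOX, used to mark the chronic library, are among the highest genes of this same pair, so their levels below are no check of its label. The line's own markers VIM, CD44, AXL, CAV1 and MSN were abundant in both day 10 libraries, with a summed level of 2902 CPM at 1% O2 and 4863 CPM at 20% O2. Of 6 receptor and epithelial genes listed as low in this line, ESR1, PGR and CDH1 had at most 1.06 CPM in any of the 5 libraries, but the other three were detected. ERBB2 had 42.5 to 52.9 CPM, GATA3 6.23 to 9.71 CPM and EPCAM 15.1 to 29.04 CPM, with the EPCAM maximum at 1% O2 on day 10. Markers of fibroblasts, endothelium, blood and liver summed to 26 CPM at 1% O2 and 8.16 CPM at 20% O2, of which PDGFRB made up 17.4 and 4.73 CPM, and CD3E, HBB and DCN had no counts in either. With 1 library per condition no difference had a replicate check and no p-value was computed. Each interval is an exact 95% interval of the ratio of counts, and it covers counting error only. In bulk RNA, fewer cells that express a gene and less of its RNA per cell cannot be told apart.

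Genes whose log2 difference, 1% O2 minus 20% O2, was at least 1 in size (2-fold) were called higher or lower. By this rule 1143 of the 11473 genes (9.96%) were higher at 1% O2 and 852 (7.43%) were lower. Larger differences lay mostly on the higher side: at least 4-fold, 227 genes were higher and 28 lower, and at least 8-fold, 59 were higher and 6 lower. The interval excluded 0 for all 1995 called genes, which the 5 CPM limit and the 2-fold rule nearly ensure at this depth. It lay wholly beyond 2-fold for 691 higher and 449 lower genes. Of the called genes, 57.3% were higher. This split followed the scaling and the filter: it was 71.2% higher on plain library totals (1372 higher, 556 lower) and 72.4% on upper quartile factors (1409 higher, 538 lower), both of which moved the median of all members up, by 0.13 and 0.14 on the log2 scale. Among the 10550 genes that passed in both libraries, 670 were higher and 769 lower, since 473 of the higher genes passed the 5 CPM limit at 1% O2 only.

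**Figure D1:**
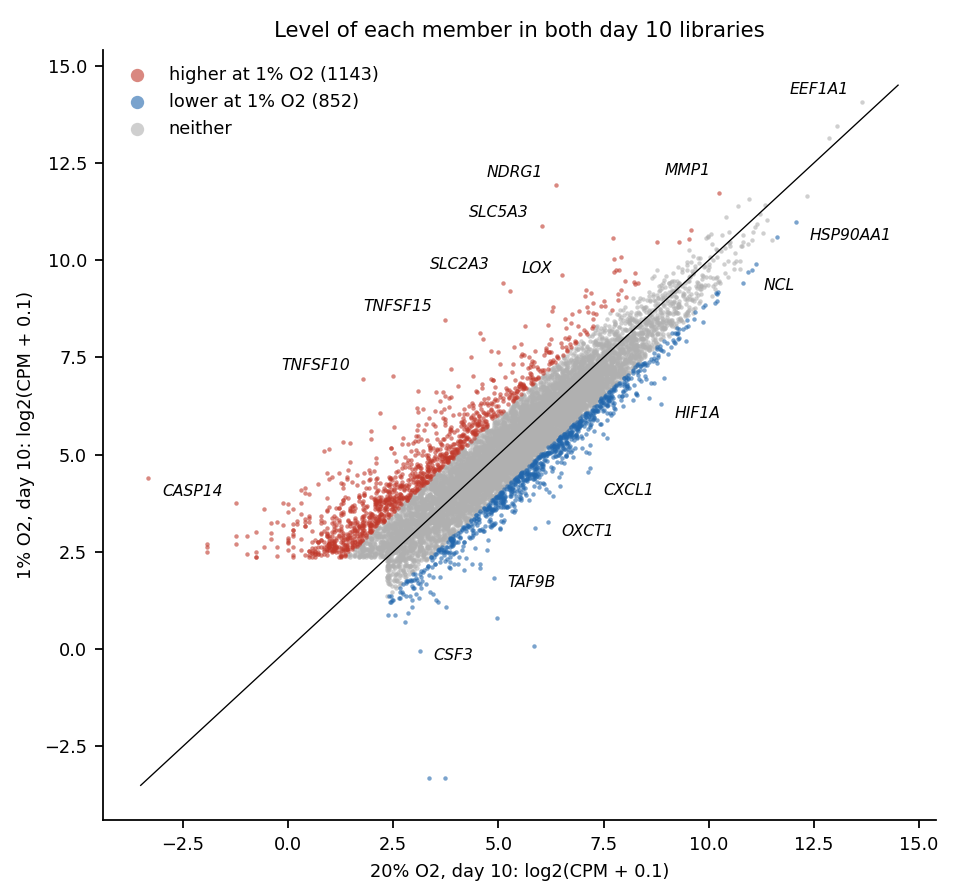
Each point is 1 of the 11473 genes; the vertical axis is its level at 1% O2 for 10 days and the horizontal axis its level at 20% O2 for 10 days, both as log2(CPM + 0.1), with the line of equal levels. The 1143 higher genes (red) spread far above the line, to NDRG1 and SLC5A3, whereas most of the 852 lower genes (blue) stay close to the 2-fold edge.

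The gene furthest apart among those that could be counted on their own was NDRG1, a stress-response gene known as a HIF target (chromosome 8, 133237175 to 133297252). Its level was 3877 CPM at 1% O2, against 82.7 CPM at 20% O2. After 1 day it was 556 CPM at 1% O2 and 64.3 CPM at 20% O2, and it was 63.4 CPM in reoxygenated cells. The chronic log2 difference was 5.55 (5.46 to 5.64), and NDRG1 transcripts alone made up 0.414% of all counts at 1% O2 and 0.00808% at 20% O2.

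Next came TNFSF10, which encodes the death ligand TRAIL (chromosome 3, 172505508 to 172523430), with 124 CPM at 1% O2 and 3.34 CPM at 20% O2. It was low in the other 3 libraries, at 3.43 CPM after 1 day at 1% O2, 1.73 CPM after 1 day at 20% O2 and 3.14 CPM in reoxygenated cells. Its log2 difference was 5.14 (4.77 to 5.70), so that the 10-day hypoxic library stood alone. The related ligand gene TNFSF15 (TL1A) had 351 CPM at 1% O2 and 13.2 CPM at 20% O2, and its log2 difference was 4.71 (4.50 to 4.97). TNFSF15 also differed between the 20% O2 libraries, with 13.2 CPM on day 10 and 2.98 CPM on day 1. Of 18 TNF family ligand and receptor genes among the members, 6 were higher and 0 lower, with a median of 0.21, and 9 lay above and 9 below 0. Of the 18, 4 passed the 5 CPM limit in 1 library only, among them TNFSF10, which favours a call for those genes. The receptor gene TNFRSF1B was higher at 2.15, as were the TRAIL decoy receptor genes TNFRSF10C at 1.12 and TNFRSF10D at 1.05. The signalling TRAIL receptor genes TNFRSF10A and TNFRSF10B differed by −0.57 and 0.47, and CASP8 by −0.27, none of them past 2-fold.

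SLC5A3 encodes the sodium-coupled myo-inositol transporter, which cells use to gather osmolytes (chromosome 21, 34073578 to 34106260). It had 1873 CPM at 1% O2 and 65.2 CPM at 20% O2, and the log2 difference was 4.84 (4.74 to 4.95). After 1 day its levels were 124 CPM at 1% O2 and 72.6 CPM at 20% O2, and reoxygenated cells had 89.9 CPM. SLC5A3 shares 2.4% of its exonic bases, on the same strand, with MRPS6, a mitochondrial ribosomal protein gene, and the MRPS6 row was also higher, by 2.64 (2.49 to 2.81), so those counts may be split between the rows; their sum was higher by 4.42 (4.33 to 4.50). In the osmolyte list 5 of 13 members were higher and 0 lower, with a median of 0.86. The betaine transporter gene SLC6A12 had 12.1 CPM at 1% O2 and 0.571 CPM at 20% O2, the taurine transporter gene SLC6A6 differed by 1.86, and the aquaglyceroporin gene AQP3 by 2.50. NFAT5, which encodes the transcription factor known to drive these transporters under salt stress, differed by 0.80 and was not past 2-fold.

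Of the 48 HIF targets outside glycolysis, 33 were higher, 0 were lower and 44 lay above 0, with a median of 1.42 where the median of all members was −0.07. The list was already apart on day 1, with 22 higher and a median of 0.87, and in reoxygenated cells minus 20% O2 on day 10 its median was −0.05. LOX, the lysyl oxidase that cross-links collagen, had 590 CPM at 1% O2 and 38.7 CPM at 20% O2, and 125 and 36.1 CPM at 1% and 20% O2 on day 1. ANGPTL4, an inhibitor of lipoprotein lipase, had 130 CPM at 1% O2 and 5.55 CPM at 20% O2. VEGFA, the main angiogenic growth factor, had 444 CPM at 1% O2 and 78.2 CPM at 20% O2, and the log2 difference was 2.50 (2.40 to 2.61) that was 0.87 on day 1. The mitophagy receptor genes BNIP3L and BNIP3 differed by 1.67 and 0.78. The carbonic anhydrase gene CA9 was already at its full difference after 1 day: its log2 difference was 2.99 (2.72 to 3.33) on day 10 and 3.30 on day 1. Exons of CA9 overlap ARHGEF39 on the other strand over 38.5% of their bases, and with both rows summed the chronic difference was 1.67 (1.47 to 1.86), since the strand setting of the counting is not given in the sources used here. The lowest member was the urokinase receptor gene PLAUR, at −0.57.

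In the HIF and oxygen-sensing core, 2 of 15 genes were higher, EGLN3 and EPAS1, and 1 was lower, HIF1A. EGLN3, the hydroxylase gene that is itself a HIF target, had 67.8 CPM at 1% O2 and 4.49 CPM at 20% O2, and the log2 difference was 3.86 (3.52 to 4.34). HIF1A (HIF-1α; chromosome 14, 61695513 to 61748258) had 78.6 CPM at 1% O2, against 467 CPM at 20% O2, and it was 190 CPM at 1% O2 and 396 CPM at 20% O2 on day 1 and 626 CPM in reoxygenated cells. Both 1% O2 libraries thus lay below all 3 libraries of cells at 20% O2, and the chronic log2 difference was −2.57 (−2.68 to −2.47). EPAS1 (HIF-2α) had 293 CPM at 1% O2 and 132 CPM at 20% O2, against 50.9 CPM at 1% O2 and 53.5 CPM at 20% O2 on day 1, and its chronic difference was 1.16 (1.07 to 1.25). HIF1A-AS2, a noncoding RNA from the HIF1A locus, was higher at 24.3 CPM at 1% O2 and 2.61 CPM at 20% O2. ARNT, EGLN1, HIF1AN and VHL differed by 0.39, 0.32, 0.01 and −0.11, all within 2-fold.

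Promoters of 4 HIF targets and of TNFSF10 are shown as examples with and without the short HIF core near the start site. Each is the 250 bases before the RefSeq start site, from RefSeq on GRCh38.p14, read 5′ to 3′ on the gene's strand, with ACGTG or its reverse complement CACGT in capitals. LOX lies at chr5:122078260-122078509 on the minus strand, CA9 at chr9:35673678-35673927 on the plus strand, ANGPTL4 at chr19:8363905-8364154 on the plus strand, EGLN3 at chr14:33951075-33951324 on the minus strand and TNFSF10 at chr3:172523431-172523680 on the minus strand.
LOX: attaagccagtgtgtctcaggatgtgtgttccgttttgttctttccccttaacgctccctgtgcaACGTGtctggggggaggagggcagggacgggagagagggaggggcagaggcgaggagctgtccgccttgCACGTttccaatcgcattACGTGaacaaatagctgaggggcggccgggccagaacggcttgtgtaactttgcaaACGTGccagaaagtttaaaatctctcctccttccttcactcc
CA9: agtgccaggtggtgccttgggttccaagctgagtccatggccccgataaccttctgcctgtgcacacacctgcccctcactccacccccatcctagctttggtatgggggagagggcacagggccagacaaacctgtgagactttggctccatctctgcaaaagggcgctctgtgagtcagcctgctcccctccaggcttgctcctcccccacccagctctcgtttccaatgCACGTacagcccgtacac
ANGPTL4: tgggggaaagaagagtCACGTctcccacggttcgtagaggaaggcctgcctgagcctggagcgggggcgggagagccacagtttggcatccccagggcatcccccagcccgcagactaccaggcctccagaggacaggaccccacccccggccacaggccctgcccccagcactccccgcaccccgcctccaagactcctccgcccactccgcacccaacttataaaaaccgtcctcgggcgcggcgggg
EGLN3: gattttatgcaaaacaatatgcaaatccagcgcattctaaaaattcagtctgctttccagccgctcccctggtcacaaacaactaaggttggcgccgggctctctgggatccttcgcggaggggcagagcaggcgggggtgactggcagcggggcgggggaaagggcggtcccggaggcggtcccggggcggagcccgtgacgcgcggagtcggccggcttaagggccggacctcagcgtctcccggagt
TNFSF10: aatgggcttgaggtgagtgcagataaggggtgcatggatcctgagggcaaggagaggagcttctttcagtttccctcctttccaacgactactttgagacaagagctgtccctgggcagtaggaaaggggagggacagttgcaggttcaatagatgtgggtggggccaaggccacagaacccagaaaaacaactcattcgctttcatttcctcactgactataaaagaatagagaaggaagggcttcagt

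LOX held the core 4 times, starting 185, 116, 98 and 42 bases before the start site, CA9 held it 18 bases before it and ANGPTL4 234 bases before it. EGLN3 and TNFSF10 had no match in this window, so the HIF targets shown here differed among themselves in holding the core. Over windows of 250 bases before to 50 after the start, on both strands, ACGTG was found in 23.1% of the promoters of higher genes, 29.8% of those of lower genes, 27.5% of the 9321 members with a promoter in the table and 21.4% of all promoters in it. GCGTG was in 44% of higher, 56.7% of lower and 51.9% of all members' promoters. CACGTG, which contains ACGTG and is also the E-box read by MYC and clock factors, was in 8.40% of higher, 13.4% of lower and 10.5% of all members' promoters. ACGTG outside CACGTG was in 16.5% of higher, 18.7% of lower and 19.2% of all members' promoters. Neither HIF core was thus more frequent among the higher genes than among all members. TATAAA, the TATA box, was in 8.98% of higher, 5.37% of lower and 5.31% of all members' promoters, and in 15.9% of those of the genes at least 4-fold higher. These shares are descriptions, and a match is not a binding site.

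Glucose uptake and glycolysis had 7 of 24 members higher and 0 lower, with a median of 0.51. Its median was 0.58 on day 1, so the list as a whole stood no further apart after 10 days, but SLC2A3 did. SLC2A3, the neuronal-type glucose transporter GLUT3 (chromosome 12), had 686 CPM at 1% O2 and 34.3 CPM at 20% O2, and 74.6 CPM at 1% O2 and 32.3 CPM at 20% O2 on day 1. Its log2 difference was 4.32 (4.18 to 4.47). The row of its close relative SLC2A14 held no counts in any library, so summing both rows could not change this. SLC2A3 shared 19.6% of its sampled sequence with other rows. SLC2A1 (GLUT1) differed by 1.15, the aldolase gene ALDOC by 1.98, the kinase gene PFKFB4 by 1.81 and the enolase gene ENO2 by 1.61. The abundant enzymes of the main pathway differed less, with LDHA at 0.62, PGK1 at 0.63, PKM at 0.09, ENO1 at −0.02 and GAPDH at −0.36. Among 13 glycogen genes 2 were higher, the glycogen-targeting subunit genes PPP1R3B at 2.76 and PPP1R3C at 1.63, and 0 were lower.

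**Figure D2:**
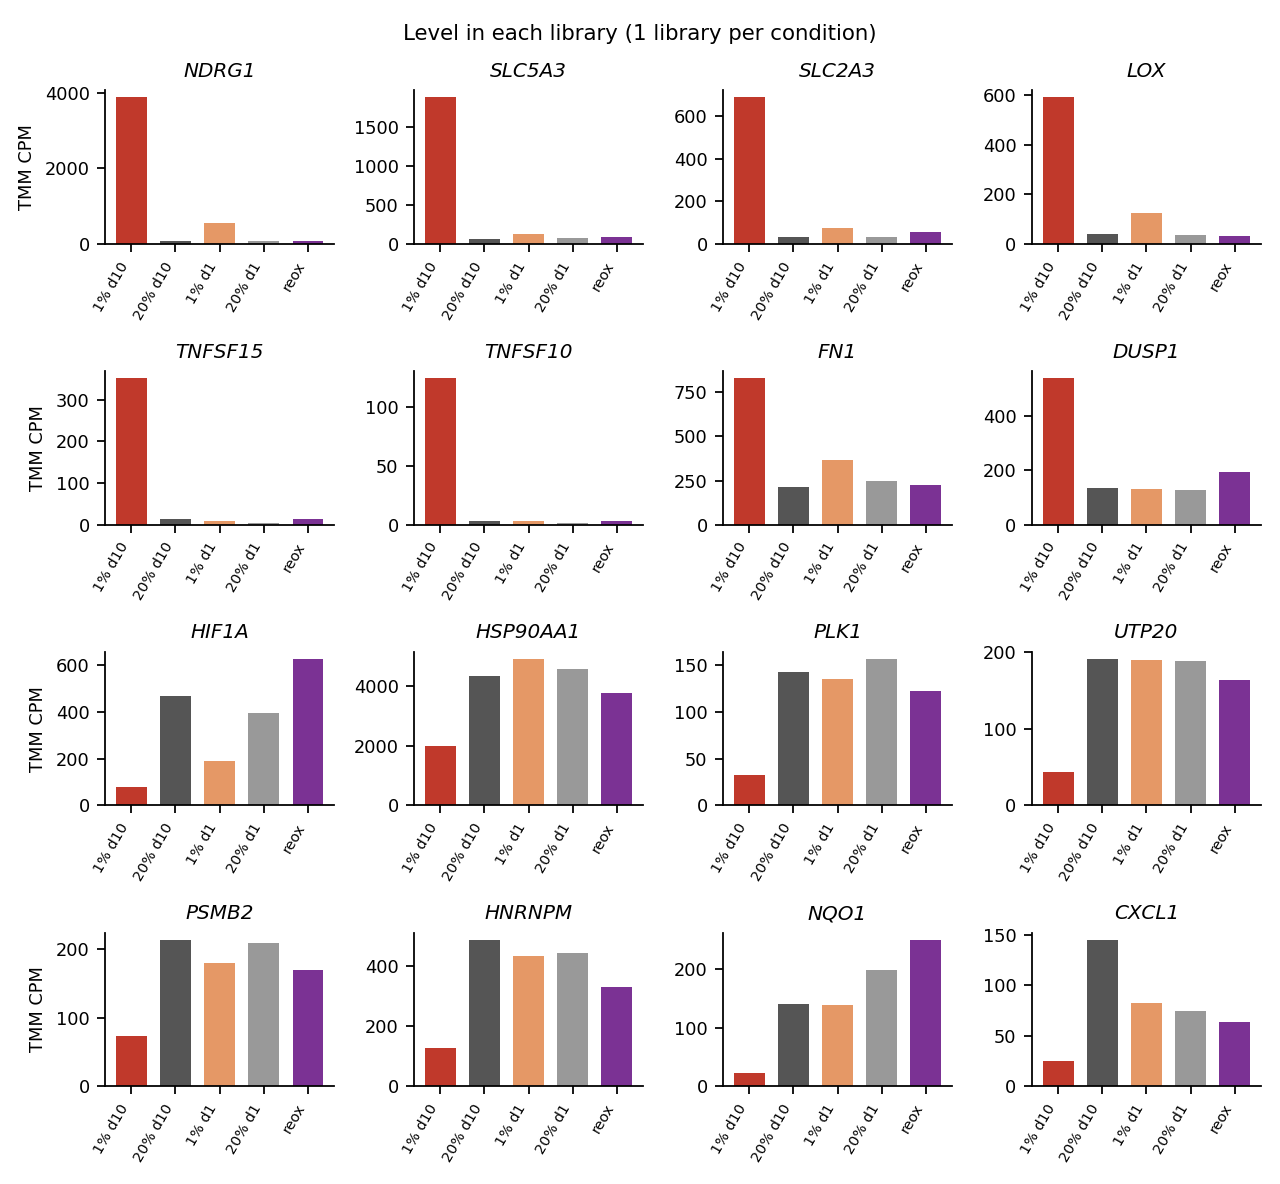
Level of 16 genes in each of the 5 libraries, in CPM on linear axes that start at 0, with 1 bar per library (red, 1% O2 for 10 days; dark grey, 20% O2 for 10 days; orange and light grey, the day 1 pair; purple, reoxygenated). The red bar stands highest in the first 8 panels and lowest in the last 8.

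Genes of cell division lay below 0 as a group. All 44 mitosis genes lay below 0, with 31 past 2-fold (24 on library totals), 0 higher and a median of −1.20. The day 1 median was −0.04. PLK1, the kinase that drives mitotic entry and exit, had 32.9 CPM at 1% O2, against 142 CPM at 20% O2, and its levels in the other 3 libraries ran from 122 to 156 CPM. Its log2 difference was −2.11 (−2.28 to −1.95), and the kinetochore motor gene CENPE differed by −1.96 (−2.11 to −1.83). All 52 DNA replication and nucleotide supply genes also lay below 0, with 24 past 2-fold (17 on library totals) and a median of −0.95. RRM2, the regulated subunit of ribonucleotide reductase, had 115 CPM at 1% O2 and 396 CPM at 20% O2, and the origin recognition gene ORC1 differed by −1.80. In DNA break and crosslink repair 12 of 31 genes were lower and 0 higher, with BARD1 at −1.69 and NBN at −1.42, and on library totals 5 were lower. The proliferation antigen gene MKI67 had 406 CPM at 1% O2 and 820 CPM at 20% O2, a log2 difference of −1.01 that shrank to −0.89 on library totals.

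The mixed list of cell cycle exit genes and CDK inhibitors leaned the other way, with 10 of 27 higher, 0 lower and a median of 0.76. CCNG2, an atypical cyclin that restrains growth, had 90.6 CPM at 1% O2 and 13.1 CPM at 20% O2, and the log2 difference was 2.77 (2.54 to 3.04). KLF9 differed by 2.62, FOXO4 by 2.49, the CDK inhibitor gene CDKN1C by 2.28 and the arrestin-domain genes ARRDC3 and TXNIP by 2.16 and 1.95. CDKN1A, the p53-driven inhibitor p21, differed by 0.20, and among 22 p53 targets 2 were higher and 3 lower. The share of p53 targets called higher was near the 9.96% of all members. MYC, the growth-promoting transcription factor gene, had 49.5 CPM at 1% O2 and 59.3 CPM at 20% O2, within 2-fold.

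The lists of protein making and clearance also had medians below 0, and their day 1 medians lay nearer to 0 except for the cytosolic ribosomal proteins. All 38 genes of ribosome biogenesis and RNA polymerase I lay below 0, with 20 past 2-fold (17 on library totals). Their median was −1.05, against −0.17 on day 1. UTP20, which helps process the small ribosomal subunit, had 43.1 CPM at 1% O2, against 191 CPM at 20% O2, and 163 to 190 CPM in the other 3 libraries. NPM1 and NCL, the abundant nucleolar proteins nucleophosmin and nucleolin, had 949 and 854 CPM at 1% O2, against 2232 and 2104 CPM at 20% O2. All 34 proteasome subunit genes lay below 0, with 16 past 2-fold (11 on library totals). Their median was −0.92, against −0.21 on day 1, and PSMB2 was at −1.54 and PSMC3 at −1.40. In splicing 13 of 33 genes were lower and 0 higher, with a median of −0.81, against −0.04 on day 1. The most distant were HNRNPM at −1.95 (−2.04 to −1.86) and SRSF3 at −1.43. The splicing kinase genes CLK1 and CLK4 went against their list at 0.96 and 0.91, just short of 2-fold. On library totals and on upper quartile factors 2 members of the splicing list were called higher and 11 lower. Translation initiation factors had 6 lower and 1 higher of 42, with EIF1AX at −1.58, EIF4G2 at −1.41 and EIF4E3 at 1.24. The 79 cytosolic ribosomal protein genes stood apart from these lists, with 0 called in either direction, a median of −0.14 and a range of −0.81 to 0.65. Their day 1 median was −0.15.

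Mitochondrial genes of the nucleus lay mostly below 0, but few passed 2-fold outside the mitochondrial ribosome. Of 76 mitochondrial ribosomal protein genes 72 lay below 0 and 18 were lower (12 on library totals), with a median of −0.65. The 1 called higher was MRPS6, whose counts may include SLC5A3 reads. Of 73 respiratory chain and ATP synthase genes 63 lay below 0, 3 were lower and 0 higher, with a median of −0.40, and the 3 were CYCS (cytochrome c) at −1.24, ATP5G1 at −1.15 and NDUFS6 at −1.08. In the list of the tricarboxylic acid cycle and mitochondrial import 18 of 24 lay below 0 and 1 was lower, the fumarase gene FH, at −1.07, which was within 2-fold on library totals (−0.94). In both of these lists the share called lower was under the 7.43% of all members. OXCT1, which lets mitochondria burn ketone bodies, had 9.49 CPM at 1% O2, against 72.9 CPM at 20% O2, and the log2 difference was −2.92 (−3.26 to −2.64).

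**Figure D3:**
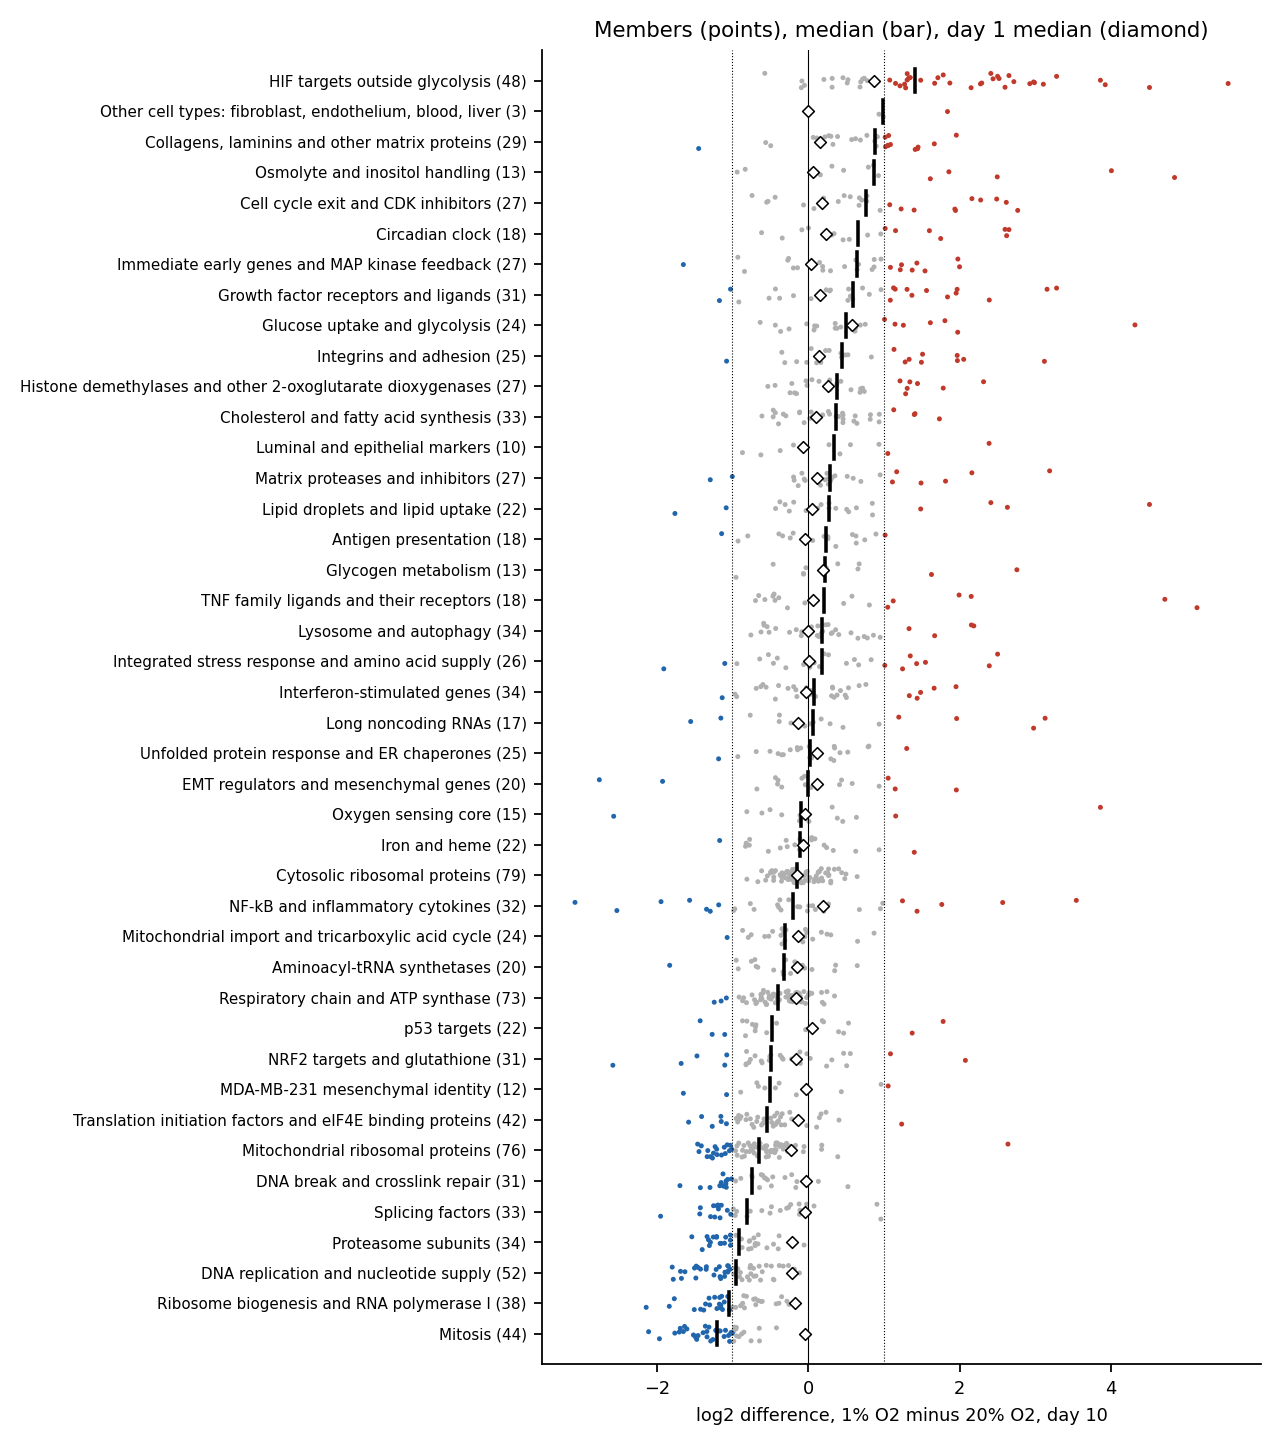
Log2 differences, 1% O2 minus 20% O2 on day 10, of the members of 42 gene lists (points; red, at least 2-fold higher; blue, at least 2-fold lower), with each list's median (bar) and its day 1 median (open diamond); numbers of members are in brackets. HIF targets lie at the top with a median of 1.42 and mitosis at the bottom with −1.20, and the day 1 medians of the lists at the bottom lie near 0.

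Matrix and adhesion genes lay mostly above 0, and a minority passed 2-fold. Of 29 collagens, laminins and other matrix proteins 26 lay above 0, 11 were higher and 1 lower, with a median of 0.88. Fibronectin, FN1, had 829 CPM at 1% O2 and 213 CPM at 20% O2, and 367 and 245 CPM at 1% and 20% O2 on day 1, and its log2 difference was 1.96 (1.90 to 2.02). The laminin genes LAMA5, LAMA3 and LAMB2 differed by 1.67, 1.44 and 1.41. The lower member was THBS1, thrombospondin 1, with 340 CPM at 1% O2 and 925 CPM at 20% O2. Of 25 integrin and adhesion genes 20 lay above 0, 9 were higher and 1 lower, led by the protocadherin gene PCDH1 at 3.12 and the integrin genes ITGA7 and ITGB3 at 2.05 and 1.97. The lower member, the hyaluronan receptor gene CD44, had 558 CPM at 1% O2 and 1176 CPM at 20% O2, a log2 difference of −1.08 that was −0.95 on library totals.

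Among matrix proteases and inhibitors 6 of 27 were higher and 2 lower. The collagenase gene MMP1 had 3414 CPM at 1% O2 and 1214 CPM at 20% O2, and 850 CPM at 20% O2 on day 1. It had 2341 CPM in reoxygenated cells, which was 0.95 above 20% O2 on day 10 on the log2 scale and not past 2-fold. Earlier hypoxia and longer culture cannot be told apart there, since no 20% O2 library was cultured as long as the reoxygenated cells. The plasminogen activators went opposite ways: tissue-type PLAT had 1083 CPM at 1% O2 and 242 CPM at 20% O2, whereas urokinase, PLAU, had 174 CPM at 1% O2 and 427 CPM at 20% O2. PLAU overlaps C10orf55 on the other strand over 31.1% of its exonic bases. In the list of EMT regulators and mesenchymal genes 3 of 20 were higher and 2 lower with a median of 0.00; the lower genes were the HLH inhibitors ID3 at −2.76 and ID1 at −1.92, and vimentin, VIM, differed by −0.68. ID3 had 8.53 CPM at 1% O2, against 58.8 CPM at 20% O2 on day 10 and 24.3 CPM at 20% O2 on day 1, so the day 10 library at 20% O2 was also the highest of the 5 for it.

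Of the secreted and signalling lists, growth factors and immediate early genes leaned higher, with medians of 0.59 and 0.65. The NF-kB and inflammatory list had calls on both sides, with a median of −0.20. Growth factor receptors and ligands had 12 of 31 higher and 2 lower, with the platelet-derived growth factor gene PDGFB at 3.28 (2.81 to 4.02), the IGF-binding protein gene IGFBP3 at 3.16 (2.98 to 3.37) and HBEGF at −1.17 (−1.32 to −1.03). Immediate early and MAP kinase feedback genes had 8 of 27 higher and 1 lower, with the MAP kinase phosphatase gene DUSP1 at 538 CPM at 1% O2 and 134 CPM at 20% O2 and the AP-1 gene FOSL1 at 67.0 CPM at 1% O2 and 210 CPM at 20% O2. NF-kB and inflammatory genes had 5 of 32 higher and 7 lower. PTGS2 (COX-2), which makes prostaglandins, had 278 CPM at 1% O2 and 23.7 CPM at 20% O2, and 38.1 and 14.3 CPM at 1% and 20% O2 on day 1. The neutrophil-attracting chemokine genes CXCL1, CXCL2 and CXCL3 differed by −2.53, −1.94 and −1.57, and CSF3, the granulocyte growth factor G-CSF, by −3.08 (−4.51 to −2.36). CXCL1 had 25 CPM at 1% O2, against 145 CPM at 20% O2, but only 75 CPM at 20% O2 on day 1, so the 20% O2 library of day 10 was also the highest of the 5 for it. The median of this list was 0.57 between day 10 and day 1 at 20% O2.

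Called genes of most stress and metabolic lists lay on both sides. NRF2 targets and glutathione genes had 5 of 31 lower (3 on library totals) and 2 higher, with a median of −0.49. The quinone reductase gene NQO1 had 23.4 CPM at 1% O2, against 141 CPM at 20% O2, and 250 CPM in reoxygenated cells, and GCLM, which makes glutathione, differed by −1.68. The 2 higher were AKR1C3 and AKR1C1, whose sequences are shared in part (13.6% and 29.1%) with relatives. The integrated stress response list had 7 of 26 higher and 2 lower, with GDF15, a secreted stress cytokine, at 2.39 and the transcription factor gene ATF5 at −1.91. The unfolded protein response had 1 of 25 higher and 1 lower, HERPUD1 at 1.30 and CRELD2 at −1.18, with a median of 0.02. Both of its shares were under those of all members (9.96% higher and 7.43% lower). Cholesterol and fatty acid synthesis had 4 of 33 higher and 0 lower, with the sterol oxidase gene MSMO1 at 1.73. In lipid handling 4 of 22 were higher and 2 lower, with the lipoprotein receptor gene LRP1 at 2.63 and the fatty acid carrier FABP5 at −1.76. Lysosome and autophagy genes had 4 of 34 higher and 0 lower, among them GABARAPL1 at 2.19 and the lysosomal master regulator gene TFEB at 2.16. In this list and in cholesterol and fatty acid synthesis the share called higher was near the 9.96% of all members.

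Oxygen-dependent 2-oxoglutarate dioxygenases, which include histone demethylases and collagen hydroxylases, had 7 of 27 higher and 0 lower. The histone demethylase gene KDM7A had 54.8 CPM at 1% O2 and 10.8 CPM at 20% O2, KDM6B differed by 1.44 and KDM3A by 1.31, and P4HA1, a collagen prolyl hydroxylase gene, by 1.78. Circadian clock genes had 7 of 18 higher and 0 lower, led by the repressor gene BHLHE40 at 2.65, DBP at 2.62 and the nuclear receptor gene RORA at 2.60. BHLHE40 had 315 CPM at 1% O2 and 49.9 CPM at 20% O2, and 78.6 and 28.0 CPM at 1% and 20% O2 on day 1.

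Of the 15 highest genes, several began from almost no counts. CASP14, a caspase of skin cornification, was counted 140 times at 1% O2 and 4 times at 20% O2, and its log2 difference was 4.71 (3.97 to 7.26). The zinc finger gene ZNF467, the chemokine-scavenging receptor gene ACKR3 and ARL14EPL each had 2 counts at 20% O2, with lower bounds of the log2 difference of 3.39, 3.30 and 3.17. The nociceptin receptor gene OPRL1 differed by 3.88 (3.10 to 6.43) and MAP3K7CL by 3.97 (3.53 to 4.67). Their order among the highest genes is therefore not settled by these counts.

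The lowest gene by the rule was SGK3, a kinase gene related to AKT, with 0 counts at 1% O2 and 124 at 20% O2, at least 35.2-fold lower with a floor of 3 counts. The row named C8orf44-SGK3 holds the same gene, however, and the sum of both rows was 48 counts at 1% O2 and 163 at 20% O2, and the log2 difference was −1.53 (−2.03 to −1.06). TAF9B, a subunit of transcription initiation complexes, was at −3.04 (−3.65 to −2.62) and shared 0.0% of its sampled sequence with other rows. Summed with its relative TAF9, which held most of the summed counts, the difference was −1.14 (−1.28 to −1.01). Other genes among the lowest were the mitochondrial carrier gene SFXN2 at −2.45, NAV3 at −2.34, DHRS2 at −2.26 and the exon junction gene MAGOHB at −2.16. TMEM79 at −2.22 and the vitamin transporter gene SLC5A6 at −2.17 overlap GLMP and ATRAID on the other strand over 19.8% and 7.4% of their exonic bases, and the GLMP and ATRAID rows differed by 0.01 and −0.15. Rows with joined names, a date as a name, or at least 50% of their sequence shared with another row were 274 of the members, and 24 of the higher and 25 of the lower genes.

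Counted as reads rather than as ratios, the higher genes together took 8.84% of the library at 1% O2 and 2.58% at 20% O2, and the lower genes 5.18% at 1% O2 and 11.2% at 20% O2. In reoxygenated cells the higher genes took 3.49% and the lower genes 9.80%. The largest gains in CPM on library totals were those of EEF1A1, the translation elongation factor, with 18176 at 1% O2 and 12497 at 20% O2, and of NDRG1, with 4135 at 1% O2 and 80.8 at 20% O2, followed by the 18S rRNA row, MMP1, the 28S rRNA row and SLC5A3. Ribosomal RNA rows took 2.17% of the library at 1% O2 and 1.58% at 20% O2, and without them in the totals 1157 genes were higher and 833 lower. The largest losses were those of the chaperone genes HSP90AA1, HSPA8 and HSP90AB1, of ACTB (cytoplasmic actin) and of NPM1 and NCL. HSP90AA1 had 2005 CPM at 1% O2, against 4338 CPM at 20% O2, a log2 difference of −1.11 that was −0.99 on library totals. Gains were more concentrated than losses: 10 genes held 14.3% of all gained reads, and 10 genes held 6.87% of all lost reads.

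Calls were not spread evenly over levels and GC content. Over the 10550 genes that passed in both libraries, split into 4 equal groups by mean CPM over the 5 libraries, which is not divided by length, the share called higher was 11.4%, 6.98%, 3.87% and 3.11% from the lowest to the highest level, and the share called lower was 3.68%, 7.39%, 8.27% and 9.82%. By the GC content of the longest transcript, split into 5 equal groups, the share called higher was 6.0% in the lowest and 15.6% in the highest, and the share called lower was 10.6% and 4.28%. The median chronic difference was −0.26 in the lowest GC group and 0.13 in the highest, and on day 1 those medians were 0.05 and −0.03. After the trend over GC was subtracted, 1030 genes were higher and 770 lower. Longest transcripts had a median of 4180 bases among higher genes, 3061 among lower genes and 3834 among all members.

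**Figure D4:**
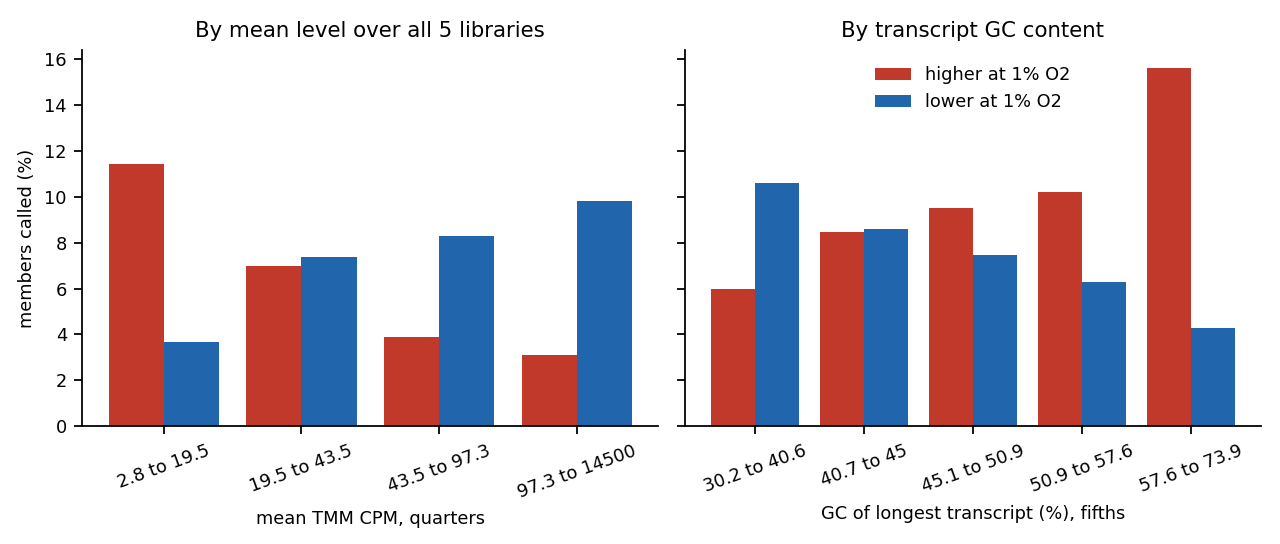
Share of members called higher (red) or lower (blue) at 1% O2 on day 10, in percent, by mean level over all 5 libraries (left, 4 equal groups of the genes that passed in both day 10 libraries) and by GC content of the longest transcript (right, 5 equal groups). The share called lower grows with level to 9.82%, and the share called higher grows with GC content to 15.6%.

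The day 1 pair shares no library with the chronic pair, so the same genes could be read in it from separate counts. These genes were chosen by their day 10 levels, however. Of the chronic calls, 473 higher and 83 lower genes passed the 5 CPM limit only in the library where they were high. That choice favours the chronic pair in counts of calls and in spread, here and in the other pairs below. On day 1, 103 of the 11473 genes were higher at 1% O2 (0.898%) and 15 were lower (0.131%), and the SD of the log2 difference over genes was 0.30, against 0.81 on day 10. Of the 1143 genes higher after 10 days, 83 (7.26%) were also at least 2-fold higher after 1 day, and these were 80.6% of the 103. Of the 852 lower after 10 days 7 (0.822%) were lower after 1 day, 46.7% of the 15. Another 5 of the 15 (33.3%) were higher after 10 days, and 2 of the 103 (1.94%) were lower after 10 days. Below the 2-fold limit the direction was often shared: 76.8% of the genes higher after 10 days lay above 0 on day 1, as did 22.7% of the genes lower after 10 days and 49.7% of all members. Their day 1 medians were small, 0.26 and −0.15.

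**Figure D5:**
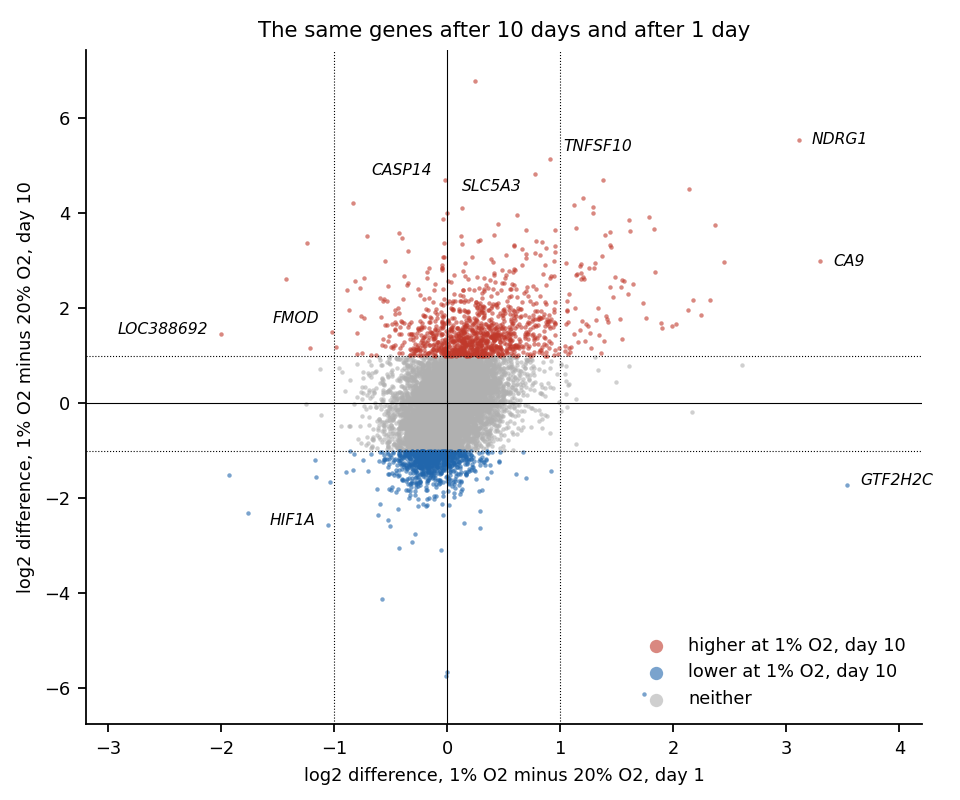
Each point is 1 of the 11473 genes; the vertical axis is its log2 difference, 1% O2 minus 20% O2, after 10 days and the horizontal axis the same after 1 day, with dotted lines at 2-fold. The spread is wider along the vertical axis (SD 0.81) than along the horizontal (SD 0.30), and NDRG1 and CA9 lie far out on both.

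The remaining pairs set the scale. At 20% O2 alone, day 10 minus day 1, 174 of the same genes were higher (1.52%) and 32 lower (0.279%), fewer than in the chronic pair, and this pair uses the 20% O2 library of day 10 as well. Reoxygenated cells minus 20% O2 on day 10, which shares that library too, had 146 higher (1.27%) and 46 lower (0.401%). In reoxygenated cells minus 20% O2 on day 1, which shares no library with the chronic pair, 422 were higher (3.68%) and 79 lower (0.689%). Of the genes higher after 10 days at 1% O2, 230 (20.1%) were among those 422, of which they made up 54.5%, and 79.1% lay above 0 there, against 48.4% of all members. Of the genes lower after 10 days, 10 (1.17%) were among the 79, of which they made up 12.7%. More of the 79, 20 (25.3%), were among the genes higher after 10 days.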

How the data were processed

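RNA-seq of MDA-MB-231 cells gave 5 libraries with 1 per condition. The submitters' processing notes name Bowtie2 2.1.0, RSEM 1.2.15, edgeR and the hg38 build. Settings, annotation and strand are not given in the sources used. The authors deposited expected counts per gene symbol, estimated and not normalized, which were rounded to whole numbers here. A second deposited table holds the authors' TMM-normalized signal, in CPM-like units. Divided by what 1 read is worth in each library, its values came back as whole reads (100% within 0.01), and 99.95% of those reads equalled the rounded counts; this table set the members, at 5 CPM in either day 10 library. No count test was run on either table, since there is 1 library per condition.

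TMM factors were computed over the 5 libraries with edgeR 4.0.16 in R 4.3.3 from rows of at least 1 CPM in at least 1 library, and log2 CPM with a prior count of 2. Printed CPM values carry no prior count, so their ratio can differ slightly from the log2 difference. Exact Clopper-Pearson intervals (95%) of the ratio of counts used scaled library totals; reads carry no molecular identifiers, so intervals and floors (3 counts) cover counting error only. Levels are not divided by length, so ranks and groups of genes by CPM also follow transcript length. The interval and the size rule were also run on simulated counts with counting error only. That run held no variation between cultures, so it checks the computation and not the calls. Symbols were matched to RefSeq on GRCh38.p14 (11361 of 11473) for coordinates and promoters, and to GENCODE transcripts for length, GC content, shared words of 50 bases and overlapping exons.

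The members, the 42 gene lists and the tests were chosen with earlier results of these data known, so no list is independent support of its direction. List counts cover members only, and a member that passed in 1 library only had to differ. Named genes were the 15 highest and 15 lowest whose interval excluded 0, without joined, uncharacterized, noncoding or sequence-sharing rows, the 6 largest gains and losses in reads, up to 4 per list and a fixed panel; other members named in a list's sentence were chosen after their values were seen. Other scalings, prior counts, filters and size rules were tried, and a correction for transcript GC and totals without rRNA rows were added after seeing the data. A spreadsheet had made dates of 28 gene symbols.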

Additional observations from a re-analysis of the deposited data

Results flagged for a closer look

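The 5 rows described here were at least 2-fold apart at 1% O2 on both days but in opposite directions, with intervals that excluded 0 on both days. No test of the difference between days was possible with 1 library per condition, so it was not tested. FMOD, the matrix proteoglycan fibromodulin, was higher on day 10 by 1.502 on the log2 scale (293 counts at 1% O2 and 120 at 20% O2) and lower on day 1, at −1.02 (22 counts at 1% O2 and 45 at 20% O2). LOC388692, an uncharacterized row, was at 1.47 on day 10 (60 counts at 1% O2 and 24 at 20% O2) and at −2.002 on day 1 (7 counts at 1% O2 and 33 at 20% O2).

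The other rows belong to genes whose reads the authors' estimation could move between rows. BLOC1S5 was at 1.17 on day 10 and −1.22 on day 1, while the joined row EEF1E1-BLOC1S5 was at −6.11 on day 10, with 0 counts at 1% O2 and 161 at 20% O2, and 1.74 on day 1. The sum of 5 rows with these names differed by −0.62 on day 10 and −0.14 on day 1. GTF2H2C, which shares 89.0% of its sampled sequence with other rows, was at −1.71 on day 10 and 3.53 on day 1, when it had 22 counts at 1% O2 and 0 at 20% O2. Summed with its relatives it differed by −1.29 on day 10 and −0.14 on day 1.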

How the results depend on the processing

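The chronic pair had 1143 genes higher, 852 lower and 57.3% of calls higher. Library totals gave 556 lower and 71.2% of calls higher, upper quartile factors 538 and 72.4%, and DESeq2 size factors 60.1%. With a limit of 1 CPM in either library 1949 were higher (67.1% of calls), and with no limit beyond 1 count 2613 (70.0%). A limit of 10 CPM gave 51.3%, and 5 CPM in both libraries gave 670 higher (46.6%). The deposited normalized values as log2(value + 1) gave 53.9%. Other size rules gave 2178 higher and 2502 lower at 1.5-fold (46.5%), 227 and 28 at 4-fold (89.0%), and 691 and 449 with the whole interval beyond 2-fold (60.6%). So the share that is higher depends on the limit, the scaling and the size rule. Prior counts of 0.5 and 5, leaving out sequence-sharing rows, the GC trend and totals without rRNA rows kept all 3 values within their bounds. No named gene or list median past 2-fold changed direction under another scaling, prior count or the deposited values. On library totals HSP90AA1, HSPA8, FH, ADAM19, CD44, GPAM, SLC7A11, FGF5 and MKI67 lay within 2-fold, as did the median of ribosome biogenesis (−0.92); VHL and the medians of the oxygen-sensing and iron lists, all near 0, changed sign. No paired analysis was possible because each condition had 1 library. Genes under about 5 CPM and differences near 2-fold are limited by depth, and variation between cultures was not measured.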

Other observations

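Higher genes were spread over the autosomes and X, with shares between 6.90% and 15.5%. Chromosome 19 had 118 of 795 members higher (14.8%) and 32 lower (4.03%), against 9.96% and 7.43% over all members. Among its 175 genes with a ZNF name (zinc finger genes) 36 were higher (20.6%) and 3 lower, with a median log2 difference of 0.32. Of its 620 other genes 82 were higher (13.2%), and of 197 ZNF genes on other chromosomes 14 were higher (7.11%). The chromosome 19 ZNF genes had a median transcript GC content of 42.3%, below the 47.7% of all members, although calls of higher genes were most frequent at high GC content.

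Of 17 named long noncoding RNAs 4 were higher and 2 lower, with a median of 0.07. The nuclear RNAs among them included NEAT1 at 1.96 and MALAT1 at 1.2, and the known HIF target MIR210HG, host of miR-210, had 9.68 CPM at 1% O2 and 1.06 CPM at 20% O2. The snoRNA host genes SNHG1 and SNHG12 were lower, at −1.15 and −1.55, with snoRNA genes within 12.0% and 9.4% of their exonic bases. Of 34 interferon-stimulated genes 5 were higher and 1 lower after 10 days at 1% O2, with a median of 0.08, whereas reoxygenated cells minus 20% O2 on day 10 had 12 higher and a median of 0.72; both differences use the same 20% O2 library. Of 21 listed genes that mark other cell types only 3 were members, and 2 of these passed the 5 CPM limit in 1 library only, which favours a call. Of the 3, 1 was higher, PDGFRB at 1.84, and all 3 were higher on library totals. In antigen presentation 1 of 18 was higher (HLA-F at 1.02) and 1 lower (TAP2 at −1.14). Among 10 luminal and epithelial markers 2 were higher, the tight junction gene CLDN7 at 2.39 and AGR2 at 1.05, and of 12 genes of the line's mesenchymal identity 1 was higher and 2 lower with a median of −0.50. Iron and heme genes had 1 of 22 higher (LCN2) and 1 lower (UROD), and aminoacyl-tRNA synthetases 1 of 20 lower (FARSB, at −1.83). The shares called in the antigen presentation, iron and synthetase lists were under those of all members (9.96% higher and 7.43% lower). The row TMEM256-PLSCR3 had 221 counts at 1% O2 and 0 at 20% O2, at least 86.6-fold higher with a floor of 3 counts, but summed with the separate TMEM256 and PLSCR3 rows the difference was 0.28 (0.08 to 0.49).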
